A study of Mus musculus with 18 samples.

Results

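The 3 mammalian Tribbles genes, Trib1, Trib2 and Trib3, were followed over 6 groups of mouse embryonic fibroblasts (MEFs) that differed in genotype and in medium. They were found as the probe sets whose annotation gives the symbol Trib1, Trib2 or Trib3. There are 3 such genes among 18194 with a probe set of a single symbol, and each of the 3 passed the filter on low values that left 13728 genes for testing. Trib1 had 2 probe sets, Trib2 had 3 and Trib3 had 2. Each gene is represented by the probe set whose mean over the 18 arrays was highest, and its other probe sets served as a check. The groups were wild-type (WT), Atf4-/- and Cebpg-/- fibroblasts, with 3 arrays each after 3 h in normal medium and 3 after 3 h in medium without amino acids (AAD, amino acid deprivation). The AAD medium was Krebs-Ringer buffer with supportive supplements. Cells of all groups were taken from E13.5 embryos, were used at low passage and were plated for 24 h before the change of medium. The labels give no strain and no design of the deleted alleles, nor do they tell if the replicates of a group were different embryos. The p-values therefore measure the spread between these samples, which may be technical.

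Tribbles proteins are pseudokinases: they have the fold of a protein kinase but a degraded ATP-binding site, and they act mainly as scaffolds. Through a C-terminal tail they bring substrates to the ubiquitin ligase COP1 or bind the kinase MEK1. TRIB1 and TRIB2 are known for directing the transcription factor C/EBPα to COP1 for degradation, and TRIB1 also for its part in macrophage differentiation and plasma lipids. TRIB3 is known as a stress-induced protein that binds AKT, ATF4 and CHOP. ATF4 is the bZIP transcription factor made when amino acid shortage leads to phosphorylation of eIF2, and CHOP, encoded by Ddit3, is one of its targets. Cebpg encodes C/EBPγ, a bZIP protein that can pair with ATF4 and has no activation domain of its own. The 6 groups ask whether each Tribbles gene answers to amino acid deprivation and whether that answer differs without ATF4 or without C/EBPγ.

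In the GRCm38.p6 gene table Trib3 lies on the minus strand at chr2:152337425-152344060, Trib2 at chr12:15791725-15816962 and Trib1 at chr15:59648654-59657099. All 3 are protein-coding. Trib1 is on the chromosome that also carries Atf4, 20.6 Mb away. The promoter of Trib3 is shown first because Trib3 had the largest differences between Atf4-/- and WT of the 3 genes and its window holds a match to the core of the C/EBP-ATF response element, a composite element bound by dimers of ATF4 with a C/EBP protein. The window below runs from 250 bases before to 30 bases after the annotated start (chr2:152344031-152344310, minus strand, RefSeq, GRCm38.p6). The capitals mark the match, which reads TGATGNAA on the opposite strand and lies 15 to 22 bases into the transcript.
Trib3: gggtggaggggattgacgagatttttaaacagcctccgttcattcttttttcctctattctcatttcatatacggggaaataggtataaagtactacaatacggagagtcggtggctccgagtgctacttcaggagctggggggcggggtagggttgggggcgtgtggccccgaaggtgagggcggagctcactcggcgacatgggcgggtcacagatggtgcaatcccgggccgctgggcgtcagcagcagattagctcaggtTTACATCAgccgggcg

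TGATGNAA was searched on both strands of windows of 300 bases (250 before to 50 after the start). It was present in 3.97% of 32851 RefSeq promoters, and in a promoter of 4.51% of 27025 genes. The window was extended past the start after the Trib3 match there was seen, so that match is a description and not a test. Of 18 listed ATF4 and CHOP target genes, 17 had a promoter in the table and 7 of these held a match (Chac1, Asns, Vldlr, Atf3, Fgf21, Slc7a11 and Nupr1). Slc7a11, the cystine transporter gene, held 2. Of the 5 genes whose levels followed Trib3 most closely (given further on), 4 had a promoter and 1, Jdp2, held a match. The sites below are printed in the direction in which they read TGATGNAA, with the match in capitals, so that the Trib3 site can be set beside those of genes described later.
Trib3: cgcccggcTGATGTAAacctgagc
Chac1: ggcaggagTGATGCAAcggcaggg
Atf3: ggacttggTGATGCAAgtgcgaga
Fgf21: tggacggaTGATGCAAtggggggg
Slc7a11: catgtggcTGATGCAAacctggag
Asns: cagccacaTGATGAAActtcccgc
Jdp2: gccggggcTGATGCAAcccgtccc

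The Trib3 site is at chr2:152344031-152344054, that of Chac1 at chr2:119351041-119351064, that of Atf3 at chr1:191183428-191183451 and that of Fgf21 at chr7:45615614-45615637. The Slc7a11 site shown is at chr3:50443664-50443687, that of Asns at chr6:7693217-7693240 and that of Jdp2 at chr12:85599375-85599398. The Trib3 match lay downstream of its start, whereas the sites of these other genes lay upstream. The cyclic AMP response element TGACGTCA was found in 1.79% of all promoters and the C/EBP palindrome TTGCGCAA in 0.183%, and the Trib3 window held neither. The Trib2 window held no match to any of these 3 motifs. A match describes letters in a window and is not a measured binding site.

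All values below are log2 probe set values, and every difference is a difference of log2 group means from limma. A gene was called in a comparison at a Benjamini-Hochberg adjusted p under 0.05 over the 13728 tested genes, and the share of all tested genes called is given as the background of each comparison. Values of different probe sets cannot be set against each other, so levels are compared within a gene only. The Atf4 probe set read 12.10 ± 0.07 (SD, n = 3) in WT and 6.50 ± 0.16 in Atf4-/- in normal medium. The Cebpg probe set read 9.27 ± 0.09 in WT and 9.31 ± 0.06 in Cebpg-/- in normal medium, so it does not check the Cebpg deletion. In AAD medium it read 10.33 ± 0.12 in WT and 9.59 ± 0.21 in Cebpg-/-. All 8 fibroblast markers passed the filter, with Vim between 13.97 and 14.00 in every group. Of 4 endothelial markers, Pecam1, Cdh5 and Tie1 had group means under the filter level of 4.65 in all groups, as did Cdh1 of the epithelial markers, while Kdr passed. Cdh1 varied widely in Cebpg-/- AAD (4.28 ± 1.74, SD, n = 3) and read 3.24 to 3.35 in the other groups. The summed linear signal of 6 epithelial markers was 906 on Cebpg-/- AAD replicate 2, led by keratins, and 233 to 430 on the other 17 arrays, so the Tribbles differences that use that array are also given without it. Of the calls on Trib1, Trib2 and Trib3 that use it, the one that changed without it was that of the Trib3 response in Cebpg-/- against WT. In normal medium 5 of 8 fibroblast markers were lower and 1 was higher in Atf4-/- than in WT, where 51.5% of tested genes were called. In Cebpg-/- 6 of 8 were lower, where 23.3% were called. Of 4 smooth muscle markers, 4 were lower in Cebpg-/- than in WT in normal medium and in AAD medium, where 29.5% were called. Without Cebpg-/- AAD replicate 2 it was 3 in AAD medium. The part of these differences in the Tribbles values was not tested.

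Trib3 was the Tribbles gene that rose in amino acid-deprived WT cells. In normal medium its WT values were 8.80, 8.64 and 8.36, and in AAD medium they were 10.73, 10.81 and 10.74. The 2 WT groups lay far apart, and the deprived WT arrays were the highest of all 18. Trib3 rose by 2.16 ± 0.18 (SE; 4.47-fold, 95% interval of the difference 1.78 to 2.54, adjusted p = 2.24e-07 by limma), in a comparison in which 28.2% of tested genes were called. It was the 30th highest difference of the 13728. Taken by replicate number, the 3 WT differences were 1.93, 2.17 and 2.38.

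In Atf4-/- cells Trib3 was low in both media. Its values were 5.87, 5.61 and 5.86 in normal medium and 6.02, 5.91 and 5.76 in AAD medium. These ranges overlapped, and every array of the other genotypes read 7.95 or more. The AAD difference in Atf4-/- was 0.12 (95% interval -0.26 to 0.50, adjusted p = 0.832 by limma), where 4.70% of tested genes were called. The response was lower in Atf4-/- than in WT by -2.04 ± 0.26 (adjusted p = 6.38e-05, 12.8% of tested genes called). In normal medium Trib3 was already 7.06-fold lower in Atf4-/- than in WT (-2.82 ± 0.18, adjusted p = 4.99e-09, 51.5% called). In AAD medium the gap was 29-fold (-4.86 ± 0.18, adjusted p = 1.45e-11, 54.3% called), and 3 of the 13728 tested genes had a more negative difference.

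In Cebpg-/- cells Trib3 was present but its response was small. Its values were 8.08, 7.95 and 8.26 in normal medium and 8.40, 8.45 and 9.28 in AAD medium. The 2 groups did not overlap, and the third deprived array stood above the other two. Trib3 rose by 0.61 ± 0.18 (1.53-fold, 95% interval 0.23 to 1.00, adjusted p = 0.0223 by limma, 21.9% of tested genes called). Without Cebpg-/- AAD replicate 2 it was 0.75 (0.0145). The call was lost without Cebpg-/- AAD replicate 3 (0.33, adjusted p = 0.0802), without Cebpg-/- normal replicate 1 (0.61, 0.0602) or replicate 2 (0.54, 0.0894), and when only these groups were fitted (0.61, 0.119).

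The response of Trib3 was lower in Cebpg-/- than in WT by -1.55 ± 0.26 (adjusted p = 0.0219 by limma). This comparison called 31 genes, or 0.226% of those tested, and Trib3 had the second most negative difference after Fgf21. The call was lost when any one of 6 arrays was left out, with differences of -1.42 to -1.57: WT normal replicate 2 (0.0632) or 3 (0.0661), WT AAD replicate 3 (0.0658), Cebpg-/- normal replicate 1 (0.051) or 3 (0.0572), and Cebpg-/- AAD replicate 2 (0.0658), the array with high keratins. In AAD medium Trib3 was 4.13-fold lower in Cebpg-/- than in WT (-2.05 ± 0.18, adjusted p = 1.35e-06, 29.5% called; -1.92 without Cebpg-/- AAD replicate 2). In normal medium the difference was -0.50 (95% interval -0.88 to -0.12, adjusted p = 0.0569, 23.3% called), and it passed the threshold without WT normal replicate 3 (-0.62, 0.0431).

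The mutants were also set against each other. Trib3 was lower in Atf4-/- than in Cebpg-/- in normal medium (-2.32 ± 0.18, adjusted p = 5.54e-08 by limma, 49.6% of tested genes called) and in AAD medium (-2.81 ± 0.18, adjusted p = 1.07e-08, 49.1% called; -2.95 without Cebpg-/- AAD replicate 2). Their responses differed by -0.49 (Atf4-/- minus Cebpg-/-, 95% interval -1.04 to 0.05, adjusted p = 0.343, 5.30% called; -0.63 and 0.229 without that array), so a difference between the mutants in response was not resolved. From highest to lowest the Trib3 group means ± SD (n = 3) were 10.76 ± 0.05 in WT AAD, 8.71 ± 0.50 in Cebpg-/- AAD, 8.60 ± 0.22 in WT normal, 8.10 ± 0.16 in Cebpg-/- normal, 5.90 ± 0.13 in Atf4-/- AAD and 5.78 ± 0.15 in Atf4-/- normal. Neighbours overlapped in 2 places: Cebpg-/- AAD with WT normal, and the Atf4-/- groups with each other.

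**Figure D1:**
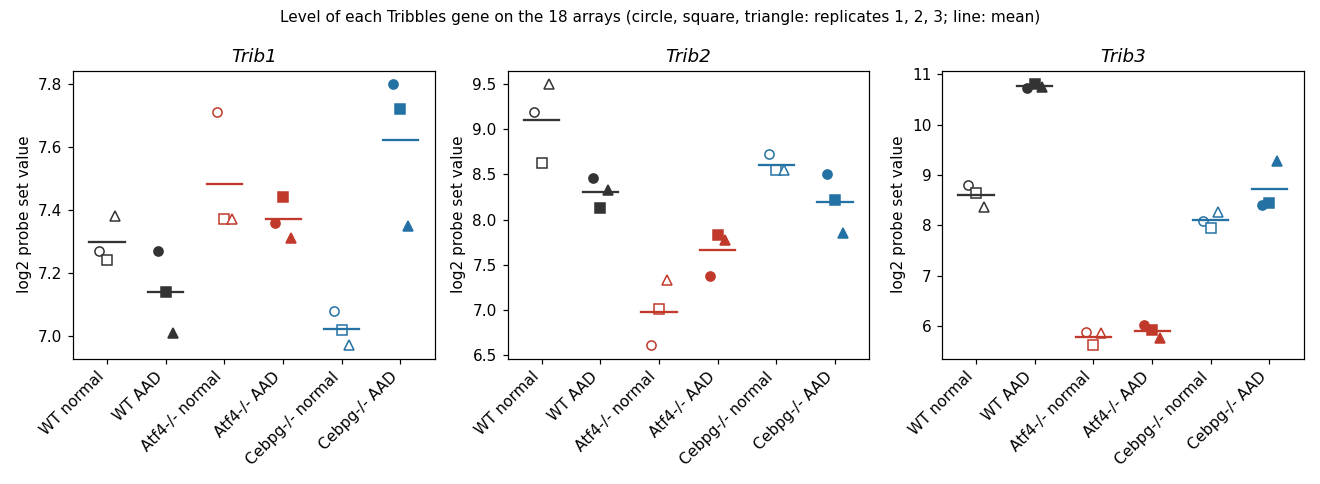
Log2 probe set value (y axis) of Trib1, Trib2 and Trib3 on each of the 18 arrays by genotype and medium (x axis). Open points are normal medium, filled points AAD medium, shapes are replicates and lines are group means; each panel has its own y range. Trib3 in deprived WT cells (10.73 to 10.81) stands above all other arrays, Trib2 is lowest in Atf4-/- cells in normal medium (6.61 to 7.33), and Trib1 spans less than the others (6.97 to 7.80).

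Trib2 moved the other way from Trib3 in deprived WT cells. Its WT values were 9.19, 8.62 and 9.50 in normal medium and 8.46, 8.13 and 8.33 in AAD medium. All 3 deprived arrays lay below the undeprived ones, among which replicate 2 was the lowest. Trib2 fell by 0.80 ± 0.22 (1.74-fold lower, 95% interval -1.26 to -0.33, adjusted p = 0.0113 by limma; 13.9% of tested genes were called lower). Without WT normal replicate 3 the difference was -0.60 (adjusted p = 0.0667).

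In Atf4-/- cells Trib2 was lower from the start, and its deprived arrays read higher. Its values were 6.61, 7.01 and 7.33 in normal medium and 7.38, 7.83 and 7.77 in AAD medium. Here every deprived array lay above every undeprived one. The difference was 0.68 ± 0.22 (95% interval 0.22 to 1.14, adjusted p = 0.0977 by limma), and by replicate number it was 0.78, 0.82 and 0.44. With the replicate number as a block within genotype it passed the threshold (fixed block, 0.68 ± 0.13, adjusted p = 0.00767; random block, adjusted p = 0.0105), and also without Atf4-/- normal replicate 3 (0.85, 0.0494). The response differed between Atf4-/- and WT by 1.48 ± 0.31 (95% interval 0.82 to 2.13, adjusted p = 0.00447), the 7th highest of the 13728 differences in that comparison.

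The deletion of Atf4 had its largest effect on Trib2 in normal medium. There Trib2 was 4.35-fold lower in Atf4-/- than in WT (-2.12 ± 0.22, adjusted p = 6.96e-07 by limma). In AAD medium, where WT had come down, it was 1.56-fold lower (-0.64 ± 0.22, adjusted p = 0.0197). The latter call was lost without WT AAD replicate 1 (-0.57, 0.0689), without Atf4-/- AAD replicate 1 (-0.51, 0.0906) and with the mean of all Trib2 probe sets (-0.24, 0.151).

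Loss of C/EBPγ was not matched by a called change in Trib2. The Cebpg-/- values were 8.72, 8.55 and 8.55 in normal medium and 8.50, 8.22 and 7.85 in AAD medium. All deprived arrays were below the undeprived ones, with a difference of -0.41 ± 0.22 (95% interval -0.88 to 0.05, adjusted p = 0.199 by limma; -0.43 and 0.261 without Cebpg-/- AAD replicate 2). With a fixed replicate block this passed the threshold (adjusted p = 0.029). Against WT, Trib2 in Cebpg-/- differed by -0.50 in normal medium (95% interval -0.96 to -0.03, adjusted p = 0.116). After deprivation the difference was -0.11 (adjusted p = 0.744), or -0.13 (0.75) without Cebpg-/- AAD replicate 2 and 0.06 (0.89) without replicate 3. The normal-medium difference was called without WT normal replicate 2 (-0.74, 0.0227). The responses of Cebpg-/- and WT differed by 0.38 (95% interval -0.27 to 1.04, adjusted p = 0.962), or 0.37 (0.961) without Cebpg-/- AAD replicate 2.

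Between the mutants, Trib2 was 3.08-fold lower in Atf4-/- than in Cebpg-/- in normal medium (-1.62 ± 0.22, adjusted p = 1.42e-05 by limma). In AAD medium the difference was -0.53 (adjusted p = 0.0549; -0.51 and 0.116 without Cebpg-/- AAD replicate 2), which was called with the random replicate block (0.0441) and without Cebpg-/- AAD replicate 3 (-0.70, 0.0209). The responses differed by 1.09 ± 0.31 (Atf4-/- minus Cebpg-/-, adjusted p = 0.0516), the third highest of all tested genes, with adjusted p = 0.00352 under the fixed and 0.00405 under the random replicate block. Without Cebpg-/- AAD replicate 2 it was 1.11 (0.0834). It was also called without Atf4-/- normal replicate 3 (1.27, 0.029), Atf4-/- AAD replicate 1 (1.23, 0.0403) or Cebpg-/- AAD replicate 1 (1.25, 0.0343). The Trib2 group means ± SD (n = 3) ran from 9.10 ± 0.45 in WT normal, 8.61 ± 0.10 in Cebpg-/- normal, 8.31 ± 0.17 in WT AAD and 8.19 ± 0.33 in Cebpg-/- AAD down to 7.66 ± 0.24 in Atf4-/- AAD and 6.98 ± 0.36 in Atf4-/- normal. The groups of WT and Cebpg-/- overlapped within each medium, and neither Atf4-/- group overlapped its neighbours. Trib2 was a noisy gene on these arrays, with a residual SD of 0.298 at the 96.8th percentile of tested genes, against 0.245 for Trib3 and 0.145 for Trib1.

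Trib1 had the narrowest range of group means, and its one called response to deprivation was in Cebpg-/- cells. Its values there were 7.08, 7.02 and 6.97 in normal medium and 7.80, 7.72 and 7.35 in AAD medium. The undeprived arrays were the lowest group for Trib1, and the deprived ones all lay above them. Trib1 rose by 0.60 ± 0.11 (1.51-fold, 95% interval 0.36 to 0.83, adjusted p = 0.00101 by limma). Without the array with high keratins, Cebpg-/- AAD replicate 2, the rise was 0.55 (adjusted p = 0.00636).

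In WT and Atf4-/- cells no change of Trib1 was called. The WT values were 7.27, 7.24 and 7.38 in normal medium and 7.27, 7.14 and 7.01 in AAD medium, and the groups overlapped. The difference was -0.16 (95% interval -0.40 to 0.08, adjusted p = 0.336 by limma). The Atf4-/- values were 7.71, 7.37 and 7.37 in normal medium and 7.36, 7.44 and 7.31 in AAD medium, and these also overlapped. Their difference was -0.11 (95% interval -0.35 to 0.12, adjusted p = 0.701).

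The response of Trib1 was then tested between genotypes. The response in Cebpg-/- exceeded that in Atf4-/- (Atf4-/- minus Cebpg-/-, -0.71 ± 0.16, adjusted p = 0.0128 by limma; -0.66 and 0.036 without Cebpg-/- AAD replicate 2). Against WT the Cebpg-/- response was higher by 0.76 ± 0.16 (95% interval 0.42 to 1.09) without passing the threshold (adjusted p = 0.0566; 0.71 and 0.144 without Cebpg-/- AAD replicate 2). It passed with the replicate block (0.0282 fixed, 0.00629 random) and without Cebpg-/- AAD replicate 3 (0.89, 0.00961). The responses of Atf4-/- and WT differed by 0.05 (95% interval -0.29 to 0.38, adjusted p = 0.904).

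Between genotypes, Trib1 was 1.40-fold higher in Cebpg-/- than in WT in AAD medium (0.48 ± 0.11, adjusted p = 0.004 by limma; 0.43 and 0.0204 without Cebpg-/- AAD replicate 2). In normal medium the difference was -0.28 (95% interval -0.51 to -0.04, adjusted p = 0.0866), although the groups did not overlap. Trib1 was higher in Atf4-/- than in Cebpg-/- in normal medium (0.46 ± 0.11, adjusted p = 0.0027). In AAD medium that difference was -0.25 (adjusted p = 0.0702; -0.21 and 0.204 without Cebpg-/- AAD replicate 2), and it was called without Cebpg-/- AAD replicate 3 (-0.39, 0.00429). Between Atf4-/- and WT it was 0.18 in normal medium (adjusted p = 0.189). The corresponding AAD value was 0.23 (adjusted p = 0.0943). The order of Trib1 group means ± SD (n = 3) was 7.62 ± 0.24 in Cebpg-/- AAD, 7.48 ± 0.20 in Atf4-/- normal, 7.37 ± 0.06 in Atf4-/- AAD, 7.30 ± 0.07 in WT normal, 7.14 ± 0.13 in WT AAD and 7.02 ± 0.05 in Cebpg-/- normal, and each group overlapped its neighbour in this order.

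**Figure D2:**
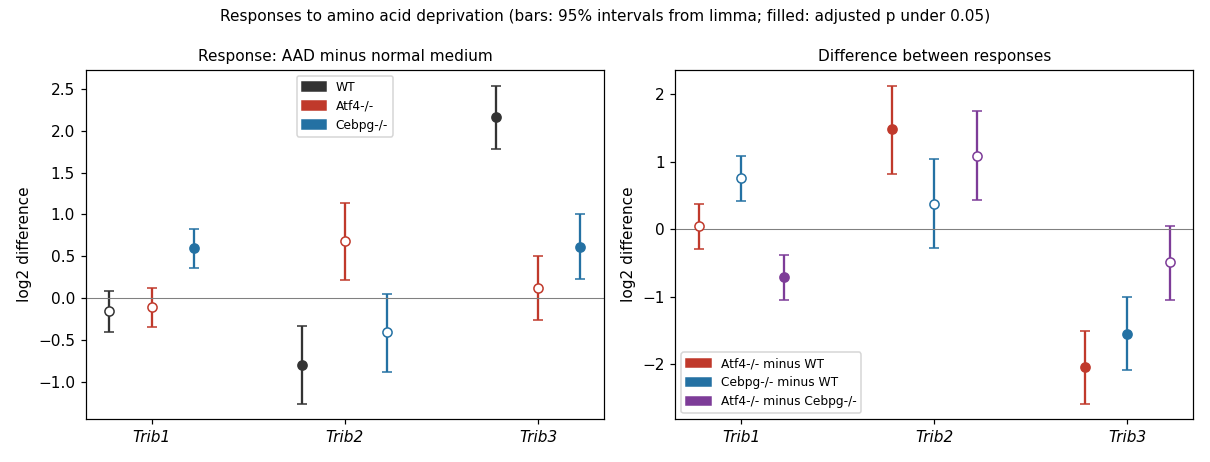
Left, the response of each Tribbles gene to deprivation (log2 difference, AAD minus normal medium) in the 3 genotypes; right, the differences between those responses. Points are limma estimates, bars 95% intervals, and filled points have an adjusted p under 0.05. Trib3 responded in WT (2.16) and less in Cebpg-/- (0.61), Trib2 fell in WT (-0.80), and Trib1 rose in Cebpg-/- (0.60).

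Macrophage markers were followed because TRIB1 is known in that cell type. Of 10 markers, 8 were higher and none lower in Cebpg-/- than in WT in normal medium, where 23.3% of tested genes were called. In Atf4-/- 6 markers were higher and 1 was lower, where 51.5% were called. In AAD medium 9 were higher and none lower in Cebpg-/- than in WT, with or without Cebpg-/- AAD replicate 2 (29.5% of tested genes called). Trib1 was also higher in that comparison (0.48). In Atf4-/- in AAD medium 8 markers were higher and 1 was lower than in WT (54.3% called). Their summed linear signal in normal medium was 4510 to 4674 in WT, 7694 to 10135 in Atf4-/- and 10194 to 13647 in Cebpg-/-. In AAD medium it was 2764 to 2971 in WT, 4782 to 6920 in Atf4-/- and 5523 to 7530 in Cebpg-/-. Lyz2, which encodes lysozyme, made up 34.3 to 68.2% of this sum and fell in all 3 genotypes, from 11.30 to 10.05 on the log2 scale in WT, from 12.41 to 11.47 in Atf4-/- and from 13.04 to 11.81 in Cebpg-/-. Without Lyz2 the ranges of the sum in normal and AAD medium overlapped in every genotype: 1811 to 2261 and 1591 to 1952 in WT, 2719 to 3341 and 2556 to 3278 in Atf4-/-, and 3282 to 4333 and 2697 to 3425 in Cebpg-/-. After deprivation 2 of the 10 markers fell in WT, 1 in Atf4-/- and 4 in Cebpg-/- (Lyz2, Tyrobp, Fcer1g and Cd14, the last not called without Cebpg-/- AAD replicate 2), and the rest were not called. Of all tested genes 28.2%, 4.70% and 21.9% were called in WT, Atf4-/- and Cebpg-/-. The means of Cd68 and Mrc1 were higher in AAD medium in all 3 genotypes, by 0.34, 0.27 and 0.16 for Cd68 and 0.22, 0.26 and 0.11 for Mrc1 in WT, Atf4-/- and Cebpg-/-, none of them called. Between media the mean of Trib1 was lower with the lower sum in WT (7.30 to 7.14) and in Atf4-/- (7.48 to 7.37) and higher with it in Cebpg-/- (7.02 to 7.62). All 10 markers passed the filter. In bulk RNA fewer cells of a type and less RNA per cell cannot be told apart, and the part of macrophage RNA in the Tribbles values was not tested.

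**Figure D3:**
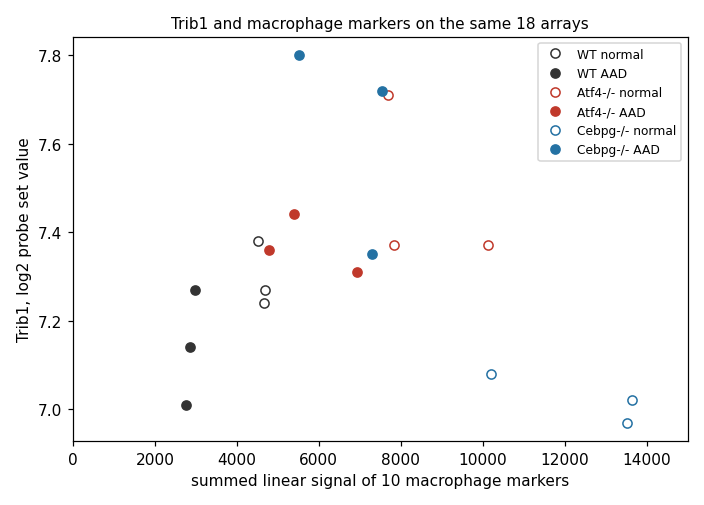
Trib1 log2 probe set value (y axis) against the summed linear signal of 10 macrophage markers (x axis) on the 18 arrays, by group. The 3 Cebpg-/- arrays in normal medium have the highest macrophage sums (10194 to 13647) and Trib1 of 6.97 to 7.08, while the deprived Cebpg-/- arrays have sums of 5523 to 7530 and Trib1 of 7.35 to 7.80.

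The other probe sets gave the same picture for Trib3 and at most a partial check for Trib1 and Trib2. The chosen Trib3 probe set, 1456225_x_at, is of a type whose probes may match other sequences too, so 1426065_a_at matters as a check. On it Trib3 rose in WT by 1.98 ± 0.17 (adjusted p = 2.99e-07 by limma over all probe sets), and the response was lower in Atf4-/- (-1.74, adjusted p = 0.00018) and in Cebpg-/- (-1.57, adjusted p = 0.0128). The Cebpg-/- response itself was 0.41 and was not called on this probe set (adjusted p = 0.104). Group means on it ran from 9.66 in WT AAD to 5.54 in Atf4-/- normal.

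For Trib1 the second probe set, 1424881_at, read 4.77 in Cebpg-/- AAD and 4.27 to 4.52 in the other groups, close to the filter level. It passed the filter only through Cebpg-/- AAD, so its higher values in that group are no independent check. It gave a rise in deprived Cebpg-/- cells (0.43 ± 0.09, adjusted p = 0.00322 by limma) and a higher value in Cebpg-/- than in WT in AAD medium (0.40, adjusted p = 0.0044). The higher Trib1 level in Atf4-/- than in Cebpg-/- in normal medium was not called on it (0.15, adjusted p = 0.196). For Trib2 the second probe set, 1426641_at, read 4.65 in WT normal and 3.82 to 4.22 in the other groups. It passed the filter only through WT normal, so its differences from that group are no independent check. It was lower in Atf4-/- than in WT in normal medium (-0.84, adjusted p = 0.00174), whereas its change in deprived WT cells (-0.49, adjusted p = 0.0746) and the difference between the Atf4-/- and WT responses (0.66, adjusted p = 0.141) were not called. Nor were Atf4-/- against WT in AAD medium (-0.17, 0.471) and Atf4-/- against Cebpg-/- in normal medium (-0.35, 0.151). On it the Atf4-/- and Cebpg-/- responses differed by 0.12 (0.906), against 1.09 on the chosen probe set. Its change in deprived Cebpg-/- cells was 0.06 (0.878), against -0.41 on the chosen one. The last Trib2 probe set, 1459852_x_at, had a highest group mean of 3.56 and did not pass the filter.

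**Figure D4:**
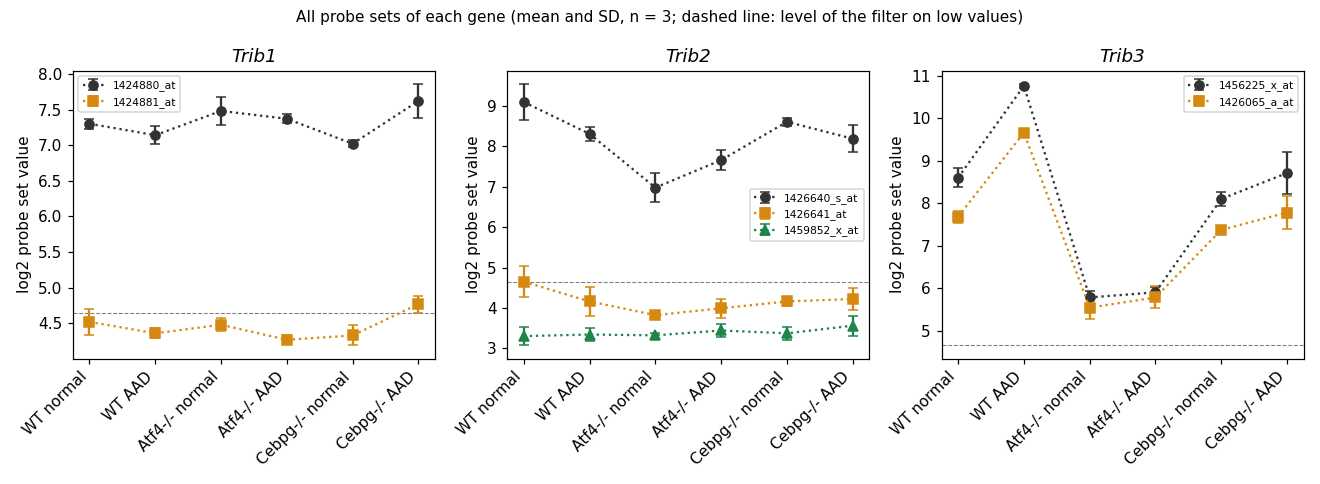
Group means (log2 probe set value, y axis) with SD (n = 3) for every probe set of each gene over the 6 groups (x axis); dotted lines join groups of one probe set and the dashed line is the filter level of 4.65. Both Trib3 probe sets follow the same order of WT AAD over the rest and Atf4-/- at the bottom, while the second Trib1 and Trib2 probe sets lie near the filter level.

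The levels of the 3 genes over the arrays were compared with those of 12949 tested genes with a proper name, as a description over 18 arrays that share genotypes and media. Trib3 was most like Inpp5b (Pearson r = 0.99), Slc7a1 (0.99), Cebpg (0.98), Jdp2 (0.98) and Nudcd1 (0.97). The Cebpg value includes the Cebpg-/- arrays, on which its probe set does not check the deletion. Slc7a1, which encodes a transporter of cationic amino acids, rose in deprived WT cells by 0.53 ± 0.09, and Jdp2, which encodes a bZIP repressor, by 0.76 ± 0.09. Their responses in Atf4-/- were 0.02 and 0.20 and in Cebpg-/- 0.24 and 0.09, none of which was called. As for Trib3, WT AAD was the highest group of both genes and the Atf4-/- groups were the lowest, with smaller differences.

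Trib2 was most like Tlnrd1 (r = 0.93), Sf3b5 (0.92), Cmklr1 (0.92), Ralb (0.91) and Cxxc5 (0.91). Cmklr1, which encodes the chemerin receptor, fell by 0.87 ± 0.15 in deprived WT cells, and Cxxc5, which encodes a CXXC zinc finger protein, fell by 0.49 ± 0.13. In normal medium they were lower in Atf4-/- than in WT by -1.90 and -1.60. The genes most like Trib1 followed it less closely: Kctd4 (0.76), Arhgap32 (0.73), Nipal1 (0.73), Kcnab3 (0.66) and Nrip1 (0.65). Nrip1, a nuclear receptor corepressor gene, rose by 0.71 ± 0.07 in deprived Cebpg-/- cells but, unlike Trib1, was also called in WT (0.46 ± 0.07). Among themselves Trib2 and Trib3 correlated at 0.61, Trib1 and Trib2 at -0.34, and Trib1 and Trib3 at -0.36.

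Trib3 was set beside 18 other listed targets of ATF4 and CHOP. In deprived WT cells 14 of the 18 rose and 4 were not called, with a list median of 0.92 against -0.01 over all tested genes, of which 28.2% were called. The largest rises were those of the transcription factor Atf3 (3.67 ± 0.12), the eIF2 phosphatase subunit Ppp1r15a (2.75 ± 0.08), Ddit3 (2.59 ± 0.10) and the hormone Fgf21 (1.82 ± 0.20). The Trib3 rise of 2.16 stood between Ddit3 and Fgf21. In Atf4-/- cells 4 rose and 14 were not called (median 0.06, 4.70% of tested genes called), and in Cebpg-/- cells 6 rose and 12 were not called (median 0.28, 21.9% called).

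The targets were also tested for a different response in Cebpg-/- than in WT, where 0.226% of tested genes were called. The list median was -0.28 against 0.00 over all tested genes. The response of 2 of the 18 was lower, that of Fgf21 (-1.61, adjusted p = 0.0337 by limma, not called without Cebpg-/- AAD replicate 2) and that of Slc7a11 (-1.27, adjusted p = 0.01). At an unadjusted p under 0.05 there were 7: these 2 with Ddit3, Ddit4, Ppp1r15a, Aldh18a1 and Slc3a2, each with a negative difference. For Atf3 the difference was 0.03 (adjusted p = 1) and for Ddit3 -0.36 (adjusted p = 0.582). In the test of Atf4-/- against WT the responses of 7 were lower and 11 were not called (12.8% of tested genes called), with Atf3 at -3.08 and Ddit3 at -1.74. By level in AAD medium, 16 of 18 were lower in Atf4-/- than in WT (54.3% of tested genes called) and 12 of 18 in Cebpg-/- (29.5%). In normal medium 13 were lower and 3 higher in Atf4-/- (51.5%), and 8 were lower and 1 higher in Cebpg-/- (23.3%).

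**Figure D5:**
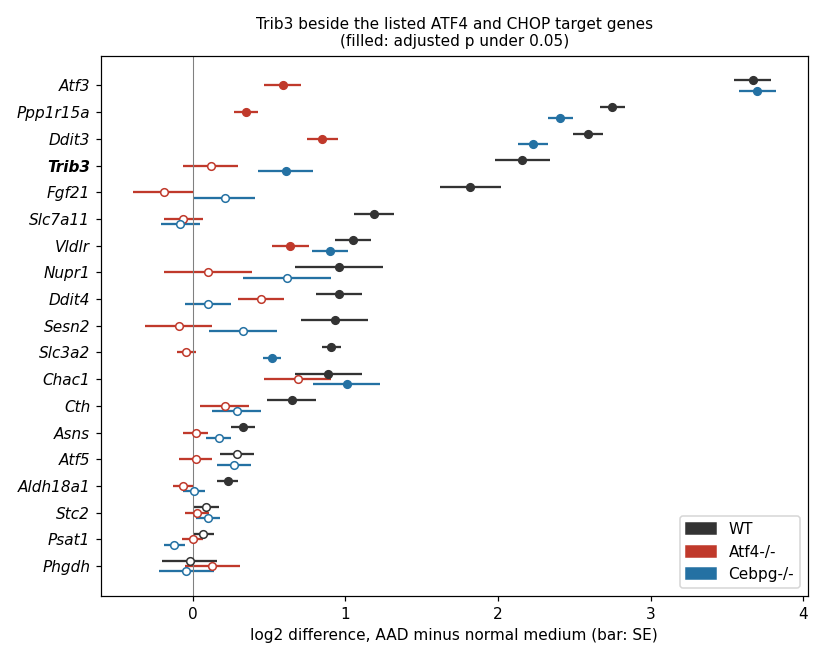
Response to deprivation (log2 difference, AAD minus normal medium, x axis) of Trib3 and the 18 listed ATF4 and CHOP targets (y axis, ordered by the WT value) in the 3 genotypes; bars are SE and filled points have an adjusted p under 0.05. Atf3, Ppp1r15a and Ddit3 rose in Cebpg-/- cells (3.70, 2.41 and 2.23) nearly as in WT, whereas Trib3 rose by 0.61 against 2.16. The median response of the 18 targets was 0.92 in WT and 0.28 in Cebpg-/-. At an unadjusted p under 0.05 by limma 7 targets, Ppp1r15a and Ddit3 among them, had a lower response in Cebpg-/- than in WT. The responses of Fgf21 and Slc7a11 were also called lower in Cebpg-/- than in WT, that of Fgf21 not without Cebpg-/- AAD replicate 2.

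The eIF2 pathway list holds 10 genes upstream of or around ATF4. In deprived WT cells 7 rose and 3 were not called, in Atf4-/- 3 rose and 1 fell, and in Cebpg-/- 5 rose, or 6 without Cebpg-/- AAD replicate 2. The backgrounds in these 3 comparisons were 28.2%, 4.70% and 21.9%, here and for the lists that follow. The kinase gene Eif2ak3 (PERK) rose by 0.38 in WT, whereas Eif2ak4 (GCN2), the sensor of uncharged tRNA, stood at -0.03 (adjusted p = 0.826 by limma). Atf4 itself rose by 0.75 in WT and by 0.38 in Cebpg-/-. In the test of Atf4-/- against WT 5 responses were lower and none was higher, where 12.8% of tested genes were called. The list includes Atf4, the deleted gene, which read 6.50 in normal and 6.45 in AAD medium in Atf4-/- cells. Its lower response there was given by the deletion. In that of Cebpg-/- against WT limma called none of the 10, where 0.226% of tested genes were called. At that share a count of none does not set the list apart. At an unadjusted p under 0.05 there were 5 (Eif2ak3, Ppp1r15a, Atf4, Ddit3 and Cebpg), of which Cebpg is the deleted gene itself.

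The COP1 ligase is the complex through which TRIB1 and TRIB2 act. Of 7 genes, 1 fell in deprived WT cells (Dda1, by 0.26) and 6 were not called, where 28.2% of tested genes were called. Limma called none in Atf4-/- (2 at an unadjusted p under 0.05, Det1 and Rbx1; background 4.70%). In Cebpg-/- 1 fell (Dda1, by 0.18; background 21.9%) and was not called without Cebpg-/- AAD replicate 2. Cop1, the ligase subunit that binds the Tribbles tail, differed by 0.08 in WT (adjusted p = 0.421 by limma), 0.02 in Atf4-/- and -0.04 in Cebpg-/-. In AAD medium Cop1 was lower in Cebpg-/- than in WT (-0.22, adjusted p = 0.012 by limma), a call that was lost without the same array. The response of Rbx1, the RING subunit, was higher in Atf4-/- than in WT (0.53, adjusted p = 0.0337).

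Of 12 listed clients and partners of Tribbles proteins, 10 were tested. In deprived WT cells 5 rose, 1 fell and 4 were not called, where 28.2% of tested genes were called. In Atf4-/- 2 were called, against a background of 4.70%, and in Cebpg-/- 5, or 4 without Cebpg-/- AAD replicate 2, against 21.9%. Cebpa, the client of TRIB1 and TRIB2, rose by 0.56 in WT and by 0.35 in Cebpg-/- (not called without that array), and stood at 0.25 in Atf4-/- (adjusted p = 0.2 by limma). Cebpb rose in all 3 genotypes, by 1.11, 0.82 and 0.93 in WT, Atf4-/- and Cebpg-/-. Ddit3, the TRIB3 partner CHOP, rose by 2.59, 0.85 and 2.23, and the autophagy receptor Sqstm1 by 1.19 in WT and 0.85 in Cebpg-/-. Acaca, which encodes the acetyl-CoA carboxylase that COP1 and TRIB3 bind, fell by 0.27 in WT. The kinase partners Akt1, Akt2, Map2k1 and Map2k4 were the 4 not called in WT.

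In signalling downstream of Tribbles partners, 13 of 15 insulin and AKT genes were tested. In deprived WT cells 6 rose and 7 were not called (background 28.2%), in Atf4-/- 2 rose (4.70%), and in Cebpg-/- 5 rose (21.9%). The receptor substrate Irs2 rose by 2.18 in WT, the transcription factor Foxo3 by 1.75 and Irs1 by 1.24. These 3 had lower responses in Atf4-/- than in WT (-0.78, -1.29 and -0.96), where 12.8% of tested genes were called. Of 10 genes of MEK and ERK feedback, 3 rose and 2 fell in WT (28.2%), 1 rose and 3 fell in Atf4-/- (4.70%), and 3 rose in Cebpg-/- (21.9%), where 1 more, Spry4, fell without Cebpg-/- AAD replicate 2. Egr1, an immediate early transcription factor, rose by 2.47 in WT and 2.99 in Cebpg-/- and stood at -0.53 in Atf4-/- (adjusted p = 0.109 by limma). Spry2, a feedback inhibitor, rose by 1.03 in WT and 1.12 in Cebpg-/-, while Spry4 fell by 1.03 in WT.

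Other pseudokinases were listed for comparison by type. Of 13 listed 12 were tested, and in deprived WT cells 3 rose (Ror1 by 0.54, Scyl3 by 0.33 and Scyl2 by 0.31), 1 fell (Nrbp1, by 0.18) and 8 were not called, where 28.2% of tested genes were called. Limma called none of the 12 in Atf4-/- cells (2 at an unadjusted p under 0.05, Stk40 and Stradb; background 4.70%) and none in Cebpg-/- cells (2, Ror1 and Nrbp1; background 21.9%). The test of Atf4-/- against WT (12.8% of tested genes called) called the response of Ror1 lower (-0.68, adjusted p = 0.0388 by limma) and that of Nrbp1 higher (0.27, adjusted p = 0.0405). The list median in WT was 0.05. On the chosen probe sets the Trib3 rise of 2.16 and the Trib2 fall of 0.80 in WT were both larger than the called changes of these 12 genes. On the second Trib2 probe set the WT difference was -0.49 (adjusted p = 0.0746 by limma), smaller in size than the Ror1 rise of 0.54. The Trib2 call in WT was lost without WT normal replicate 3 (-0.60, 0.0667).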

How the data were processed

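Affymetrix arrays for the mouse genome measured RNA from 18 MEF samples, 3 per group. The authors deposited log2 values per probe set, made with RMA per the submitters' processing notes, which give no version. They ranged from 2.15 to 14.56, with array medians of 5.21 to 5.27, and no pair of arrays was identical. The spread behind single probe sets is not given, so the number of arrays limits the precision. Of 45101 probe sets, 34958 had 1 gene symbol, 932 had several, and 9211 were not listed or had no symbol; 34754 were matched to GRCm38.p6 by Entrez identifier. Each gene took its probe set with the highest mean, and genes whose highest group mean was under the 40th percentile (4.65) were left out.

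A group-means model (12 residual degrees of freedom) was fitted with limma 3.58.1 in R 4.3.3 over 13728 genes, with 12 contrasts and Benjamini-Hochberg adjustment. It was tested on simulated data. Alternatives were no filter or a stricter one, quantile normalization, the mean of all probe sets, only the groups compared, trended robust moderation, a replicate block within genotype, and leaving out each array. Replicate numbers paired arrays within a genotype: deviations of same-numbered arrays across media correlated at 0.30 to 0.69 in 9 of 9 pairs, against -0.56 to 0.09 between other numbers. Deviations from group means cancel within a group, so the low values between other numbers follow in part from the high ones. Same-numbered arrays of different genotypes in the same medium correlated at -0.24 to 0.19.

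The members and gene lists (7 pathway lists and the cell type markers) were chosen with earlier results of these data known. Named genes were the 3 Tribbles genes, the 5 genes with the highest correlation to each over 18 arrays, Atf4 and Cebpg, up to 4 called members per list with the largest WT response, and Ddit3, Cebpa, Cebpb and Cop1. Other list members were named after their values were seen. Promoter windows came from RefSeq, and the motif window was extended past the start after the Trib3 match there was seen.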

Additional observations from a re-analysis of the deposited data

Results flagged for a closer look

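In 4 cases the response of a Tribbles gene to deprivation differed between genotypes in a direct test of the difference (limma, Benjamini-Hochberg adjusted over 13728 genes, 3 arrays per group). The Trib3 response was lower in Atf4-/- than in WT by -2.04 (adjusted p = 6.38e-05) and lower in Cebpg-/- than in WT by -1.55 (adjusted p = 0.0219). The latter call was lost without any one of 6 of the 12 arrays in that comparison (adjusted p up to 0.0661) and when only the groups compared were fitted (0.0707). The Trib2 response was higher in Atf4-/- than in WT by 1.48 (adjusted p = 0.00447). The Trib1 response was lower in Atf4-/- than in Cebpg-/- by -0.71 (adjusted p = 0.0128).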

How the results depend on the processing

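Of 270 values of Trib1, Trib2 and Trib3 recomputed under the planned settings with all arrays kept, 249 kept direction and side of the threshold, 18 passed it newly and 3 lost it. No called value changed direction; of uncalled ones, with the mean of all probe sets the Trib1 response in Atf4-/- minus WT went from 0.05 to -0.01 and Trib2 in Cebpg-/- against WT in AAD medium from -0.11 to 0.05, and 4 values without 1 array also crossed 0. The 3 losses were Trib3 in deprived Cebpg-/- cells (0.61, adjusted p = 0.119) and the Trib3 response in Cebpg-/- minus WT (-1.55, 0.0707), both when only the groups compared were fitted, and Trib2 in Atf4-/- against WT in AAD medium with the mean of all probe sets (-0.24, 0.151). When only the groups compared were fitted, these passed newly: Trib2 response in Atf4-/- minus Cebpg-/- (1.09, 0.0496), Cebpg-/- against WT in normal medium for Trib1 (-0.28, 0.0191) and Trib3 (-0.50, 0.0293), Trib1 in Atf4-/- against WT in AAD medium (0.23, 0.0471) and Trib2 in Atf4-/- against Cebpg-/- in AAD medium (-0.53, 0.0476). With the mean of all probe sets, these did: Trib1 response in Cebpg-/- minus WT (0.67, 0.00877), Trib1 in Cebpg-/- against WT in normal medium (-0.23, 0.0239) and Trib1 in Atf4-/- against Cebpg-/- in AAD medium (-0.38, 0.000318). Trended robust moderation added the Trib1 response in Cebpg-/- minus WT (0.76, 0.0462), and the filter at the 50th percentile the Trib2 response in Atf4-/- minus Cebpg-/- (1.09, 0.0474). With the replicate block (random, correlation 0.405, for all 12 comparisons, or fixed, for deprivation and the differences between responses), calls were gained by Trib2 in deprived Atf4-/- cells (0.68), Trib2 in deprived Cebpg-/- cells (-0.41, fixed block), the Trib1 response in Cebpg-/- minus WT (0.76), the Trib2 response in Atf4-/- minus Cebpg-/- (1.09) and Trib2 in Atf4-/- against Cebpg-/- in AAD medium (-0.53, random block); in the comparisons each block covered, it changed no other call on the 3 genes. The cause of these changes was not tested.

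Leaving out 1 array at a time gave another 270 values, of which 12 lost the threshold and 9 passed it newly. For Trib2 the range was -1.04 to -0.60 in deprived WT cells, 0.49 to 0.85 in deprived Atf4-/- cells, 0.91 to 1.27 for the response in Atf4-/- minus Cebpg-/-, -0.74 to -0.30 for Cebpg-/- against WT in normal medium, -0.73 to -0.51 for Atf4-/- against WT in AAD medium and -0.70 to -0.37 for Atf4-/- against Cebpg-/- in AAD medium. For Trib3 it was 0.33 to 0.77 in deprived Cebpg-/- cells, -1.83 to -1.39 for the response in Cebpg-/- minus WT and -0.62 to -0.40 for Cebpg-/- against WT in normal medium. For Trib1 it was 0.67 to 0.89 for the response in Cebpg-/- minus WT and -0.39 to -0.16 for Atf4-/- against Cebpg-/- in AAD medium.

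The background counts moved more. With the random and fixed replicate block the genes called went from 645 to 1633 and 1523 for deprivation in Atf4-/-, from 3013 to 4739 and 4663 in Cebpg-/-, and, for differences between responses, from 1752 to 3306 and 3270 (Atf4-/- minus WT), from 31 to 221 and 189 (Cebpg-/- minus WT) and from 728 to 1912 and 1824 (Atf4-/- minus Cebpg-/-). The 31 became 55 with quantile normalization, 56 with trended robust moderation and 8 to 51 without 1 array, and the 645 became 329 when only its groups were fitted and as few as 334 without 1 array. Cebpg-/- against WT in normal medium called 3204 genes and 2081 without Cebpg-/- normal replicate 3. Counts of list genes without Cebpg-/- AAD replicate 2 were added after seeing the data. With 3 arrays per group, low probe sets such as the second ones of Trib1 and Trib2 limit what can be checked.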
